A study of Mus musculus with 6 samples.

Results

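The 9 genes described here encode proteins that coat lipid droplets or help to form and enlarge them, and they were chosen by name for that role. They comprise the perilipins Plin2, Plin3, Plin4 and Plin5, the CIDE proteins Cidea and Cidec, and the endoplasmic reticulum proteins Fitm1, Fitm2 and Bscl2, out of 45706 genes in the count table. The samples were 6 RNA libraries of 3T3-L1, a mouse embryo fibroblast line that can be turned into adipocytes, harvested on day 7 of adipogenic differentiation. In 3 cultures (scrambled control, labelled WT) the cells stably carried a scrambled shRNA, and in 3 (RBMS1 knockdown, labelled RBMS1KD) they carried an shRNA against Rbms1, an RNA-binding protein. Every culture received the same cocktail of IBMX, insulin, dexamethasone and rosiglitazone, the last being an activator of PPARγ. The knockdown line was made by lentiviral transduction and puromycin selection of this 1 cell line. The study calls the 3 samples of a group biological replicates, but whether they came from separate transductions is not given in the sources used here, so the p-values measure only the spread between these cultures.

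Lipid droplets bud from the endoplasmic reticulum, where triglyceride collects between the membrane leaflets. FIT proteins and seipin, the product of Bscl2, act at the sites where droplets form, perilipins then cover the surface and control the access of lipases, and CIDE proteins gather at the contacts between droplets and pass lipid from the smaller to the larger one. In adipocytes, Plin1 and Cidec accompany the large droplet of the mature cell, Plin2 and Plin3 coat small droplets in most cell types, and Plin4 coats nascent droplets. Plin5 and Cidea are known from oxidative tissues and brown fat, and Fitm1 from muscle.

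Total counts ranged from 3142695 in scrambled control replicate 2 to 11073098 in RBMS1 knockdown replicate 3, and genes derived from ribosomal RNA took 43.0% of the counts in scrambled control replicate 2 and 17.8% or less in the others. Rbms1 itself was at 113, 102 and 99.6 CPM in the controls and at 49.2, 61.4 and 84.0 CPM in the knockdown cultures, where CPM are counts per 1000000 library counts, scaled with TMM factors. The fold change of Rbms1 on the log2 scale was -0.69 (standard error 0.20, edgeR adjusted p = 0.185), and the test did not pass. The groups did not overlap, which was the case for 18.5% of all tested genes. These values are of RNA, and the study checked the knockdown on the protein by immunoblot. A gene counted as changed at a Benjamini-Hochberg adjusted p of 0.1 or less over all 11440 tested genes, from the quasi-likelihood F test of edgeR. This was reached by 140 genes (1.22%), 104 of them lower (0.909%) and 36 higher (0.315%) in the knockdown, and 53 genes (0.463%) had an adjusted p under 0.05. With library sizes alone the split was 42 lower and 84 higher. All 12 adipocyte markers were tested, and their summed level was 23756 to 27295 CPM in the controls and 22184, 12139 and 14630 CPM in RBMS1 knockdown replicates 1, 2 and 3. The 13 preadipocyte and fibroblast markers summed to 10194 to 11649 CPM in the controls and to 5736, 12614 and 12900 CPM in the same 3 knockdown cultures. Of these sums, Col1a2 alone held 2821 to 3353 CPM in the controls and 1927, 4680 and 5589 CPM in the knockdown cultures. In bulk RNA, fewer cells of a type and less RNA per cell cannot be told apart.

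Of the 9 genes, 6 had enough counts to be tested, and none of the 6 passed. Their log2 fold changes had a median of -0.25, against 0.0044 over all tested genes, with 5 below 0 and 1 above. Plin4 was the 1 gene of the 6 whose knockdown and control cultures did not overlap, which was the case for 18.5% of all tested genes. Plin4 was also the 1 gene with an unadjusted p under 0.05, reached by 12.4% of all tested genes. DESeq2 called 1 of the 6, again Plin4, where it called 3.20% of the genes it tested, 2.12% as lower. Limma-voom called none of the 6.

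The proximal promoters of Plin2, Plin4 and Cidec are shown because these were the most abundant of the 9 genes, and Plin2 and Cidec shared a pattern over the cultures that Plin4 did not. Each stretch covers the 200 bases before the transcription start in RefSeq, on the minus strand of GRCm38.p6, written 5′ to 3′, with capitals for a CCAAT motif on either strand. The stretches lie at chr4:86670060-86670259, chr17:56109783-56109982 and chr6:113435761-113435960, the last before the more upstream of 2 listed Cidec starts.
Plin2: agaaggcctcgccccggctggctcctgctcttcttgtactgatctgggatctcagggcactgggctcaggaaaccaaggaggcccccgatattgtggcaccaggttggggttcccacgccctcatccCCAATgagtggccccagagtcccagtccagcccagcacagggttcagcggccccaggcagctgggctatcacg
Plin4: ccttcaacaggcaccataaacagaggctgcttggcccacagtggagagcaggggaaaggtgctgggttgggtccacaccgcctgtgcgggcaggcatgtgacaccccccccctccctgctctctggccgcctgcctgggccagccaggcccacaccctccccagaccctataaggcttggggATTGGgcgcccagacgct
Cidec: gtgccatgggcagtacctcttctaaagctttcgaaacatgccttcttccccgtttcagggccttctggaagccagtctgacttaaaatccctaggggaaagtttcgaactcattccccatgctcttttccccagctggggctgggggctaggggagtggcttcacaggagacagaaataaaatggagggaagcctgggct
The motif began at position -73 in Plin2 and at position -18, on the opposite strand, in Plin4, counted back from the start. In the GENCODE annotation Plin4 begins further upstream, at 56109803, so there the Plin4 motif lies inside the gene. CCAAT was not found on either strand of the Cidec stretch. Of all 32851 promoter windows in the table, 29.35% held CCAAT in this stretch. The half-site of PPARγ and its partner, AGGTCA, was found in 11.37% of the windows and in none of these 3, and the C/EBP-like motif TTNNGCAA in 7.47% and in none of these 3. Of the 8 genes with a window, Plin5 held AGGTCA, and Plin3, Plin5 and Bscl2 also held CCAAT.

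The detected genes differed widely in level once corrected for transcript length. Lengths were those of the longest coding transcript, and the scale was transcripts per 1000000 protein-coding transcripts (TPM). On this scale Cidec had a control mean of 2950.1 ± 47.4 (SD, n = 3) and a knockdown mean of 2810.2 ± 1158 (SD, n = 3), and by its mean over all 6 cultures it ranked 27th of 14476 protein-coding genes with a count. Plin1, the main perilipin of the mature adipocyte and not among the 9, followed at 651 TPM over all 6 cultures.
Plin4 had 547 TPM, Plin2 443 TPM and Fitm2 210 TPM on that same mean, followed by Bscl2 at 60.9 TPM and Plin3 at 53.1 TPM. The step from Cidec to the next gene was 4.42-fold and was seen in 6 of 6 cultures. Plin1 exceeded Plin4 in 4 of 6 cultures, Plin4 exceeded Plin2 in 5 of 6, and Bscl2 exceeded Plin3 in 4 of 6, so the ranges of these neighbours overlapped. Fitm2 exceeded Bscl2 in 6 of 6 cultures, with a 3.44-fold difference in the mean.

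**Figure D1:**
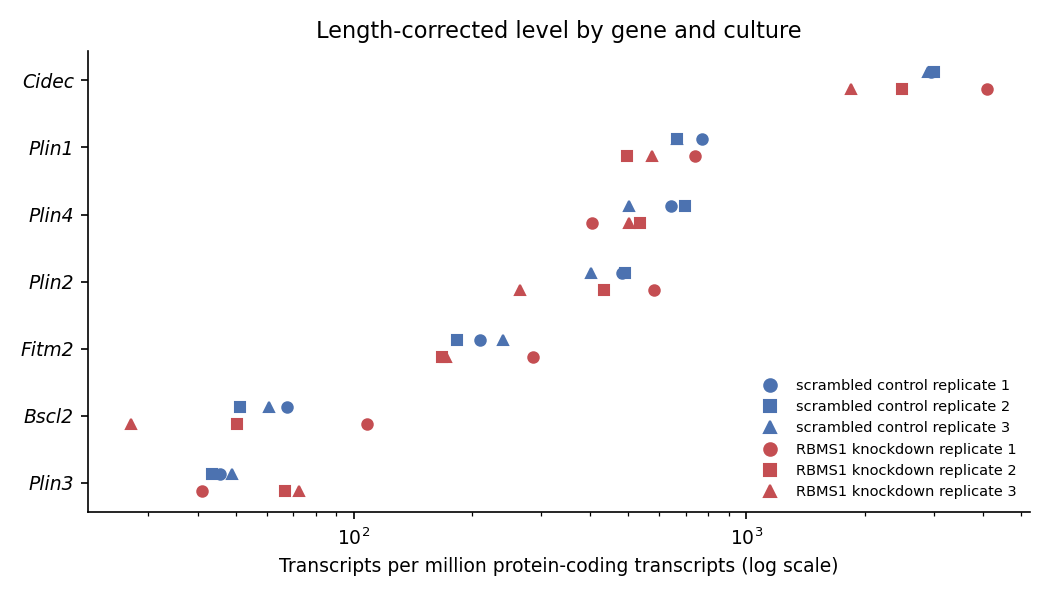
Length-corrected level of the 6 tested genes and of Plin1, in transcripts per 1000000 protein-coding transcripts on a log axis. Each symbol is 1 culture, blue for scrambled control and red for RBMS1 knockdown. Cidec lies above every other gene in all cultures, and the ranges of Plin1, Plin4 and Plin2 overlap.

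Among the perilipins, Plin4 (ENSMUSG00000002831, chromosome 17, 56100591 to 56109803 in GRCm38) had the largest difference in size. It stood at 1100, 1243 and 849 CPM in scrambled control replicates 1, 2 and 3 and at 630, 767 and 738 CPM in RBMS1 knockdown replicates 1, 2 and 3. Each knockdown culture was below each control, although scrambled control replicate 3 and RBMS1 knockdown replicate 2 lay close together. The log2 fold change of Plin4 was -0.58 (standard error 0.20, 95% interval -1.04 to -0.12, edgeR adjusted p = 0.275). The fold change was thus 0.669, with an interval of 0.487 to 0.917, and it did not pass the test over all genes. With any 1 culture left out it lay between -0.72 and -0.46, and DESeq2 gave -0.56 (adjusted p = 0.0953 from DESeq2). On the length-corrected scale, which does not use TMM factors, the groups overlapped, at 502 to 697 TPM in the controls and 404 to 536 TPM in the knockdown.

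Plin2 (ENSMUSG00000028494, chromosome 4, 86648386 to 86670060), the perilipin that most cells make when they store lipid, stood at 271, 287 and 223 CPM in the controls and at 297, 203 and 127 CPM in the knockdown cultures. RBMS1 knockdown replicate 1 was above every control and the other 2 knockdown cultures were below every control. For Plin2 the log2 fold change came to -0.32 (standard error 0.27, 95% interval -0.93 to 0.29, edgeR adjusted p = 0.692), which did not exclude a fold change between 0.526 and 1.23.

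Plin3 (ENSMUSG00000024197, chromosome 17, 56277476 to 56292873), a perilipin that moves between the cytosol and small droplets, was the 1 tested gene with a log2 fold change above 0. Its levels were 49.5, 49.1 and 52.5 CPM in the controls, within a narrow range, and 40.5, 60.6 and 67.4 CPM in the knockdown cultures. The order of the knockdown cultures was the reverse of that seen for Plin2, with replicate 1 below and replicates 2 and 3 above every control. Plin3 had a fold change of 0.16 on the log2 scale (standard error 0.20, 95% interval -0.29 to 0.60, edgeR adjusted p = 0.802).

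Plin5 (ENSMUSG00000011305, chromosome 17, 56111601 to 56117596), which lies close to Plin4 on the same strand, had 0 counts in each of the 6 cultures. The level that 3 counts stand for, the limit that a count of 0 allows, was 0.220 to 1.49 CPM depending on the library and 0.0694 CPM over all 6 libraries together, for counting error only. The 12 brown and beige adipocyte markers, the cell types in which Plin5 and Cidea are known to be abundant, included Ucp1 and Tbx1 with no count in any culture, and their summed level was 48.6 to 74.9 CPM in the controls and 22.8 to 41.5 CPM in the knockdown. Of their 5 tested genes, 4 were below 0, none passed by edgeR, 3 had an unadjusted p under 0.05 (12.4% of all genes did), and DESeq2 called 2 (3.20% of all genes) and limma-voom 0.

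**Figure D2:**
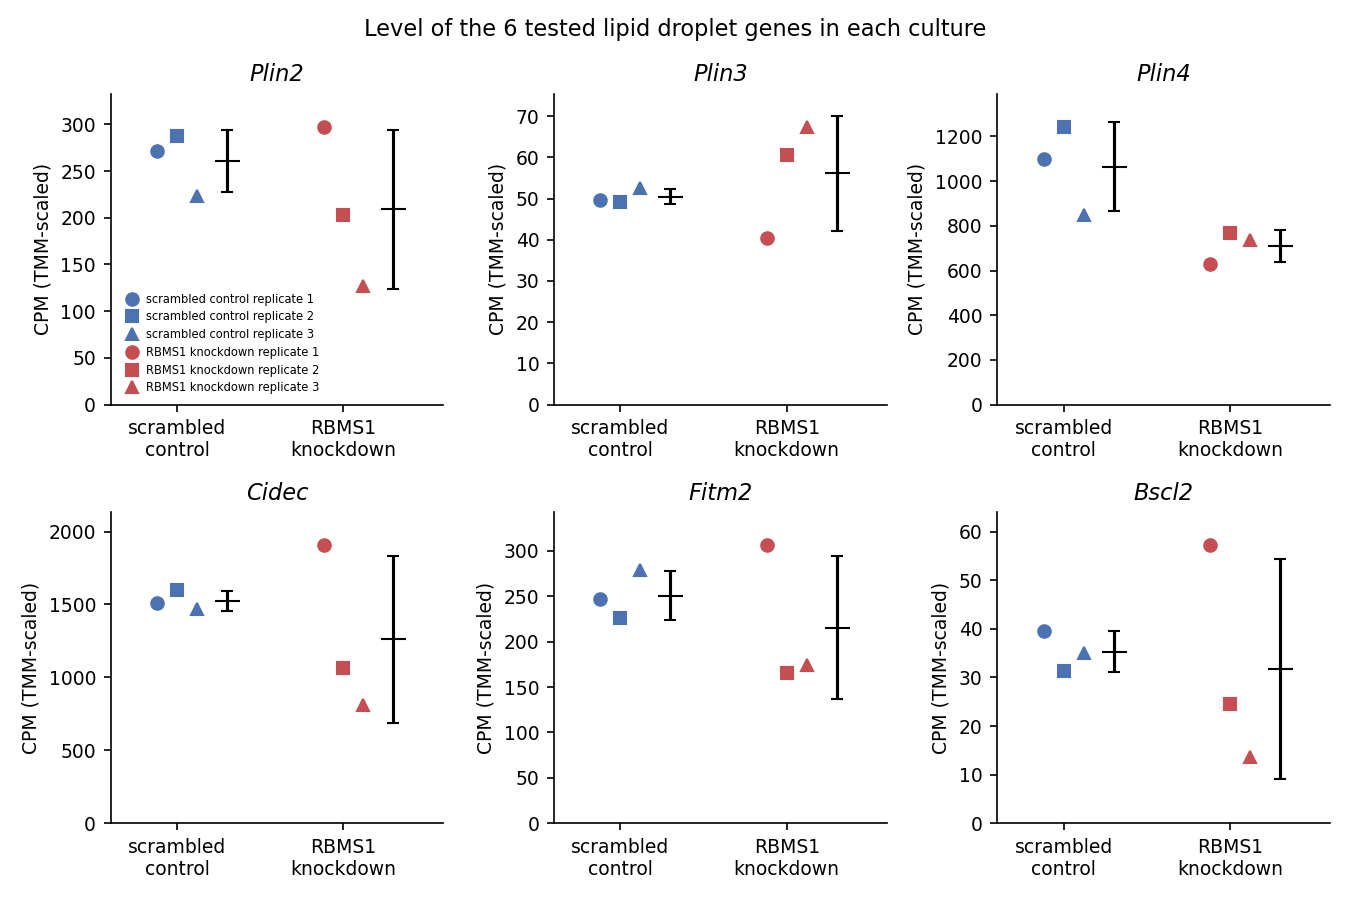
TMM-scaled CPM of the 6 tested genes, one panel per gene with its own axis from 0. Each symbol is 1 culture, its shape gives the replicate number, and the bar to the right of each group is the mean ± SD (n = 3). In Plin2, Cidec, Fitm2 and Bscl2, RBMS1 knockdown replicate 1 is the highest of all cultures, while in Plin4 it is the lowest.

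Of the CIDE genes, Cidec (ENSMUSG00000030278, chromosome 6, 113424634 to 113435760), which drives the growth of large droplets in white adipocytes, stood at 1508, 1600 and 1467 CPM in the controls and at 1906, 1062 and 812 CPM in the knockdown cultures. The controls lay close together, RBMS1 knockdown replicate 1 was above all of them, and replicates 2 and 3 were below all of them. For Cidec the log2 fold change came to -0.28 (standard error 0.30, 95% interval -0.96 to 0.41, edgeR adjusted p = 0.764). Cidea (ENSMUSG00000024526, chromosome 18), its relative of brown fat, had 7 counts in all, 2 in scrambled control replicate 2 and 5 in RBMS1 knockdown replicate 1. Pooled over the libraries of a group, the knockdown to control ratio per unit of library size was 1.21 with a 95% exact binomial counting interval of 0.198 to 12.7, whereas the mean of the 3 cultures was 0.331 CPM for controls and 0.240 CPM for knockdown. These point in opposite directions, and a difference was not detectable at this depth.

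Of the genes of the endoplasmic reticulum, Fitm2 (ENSMUSG00000048486, chromosome 2, 163466379 to 163472629), which is needed for normal droplet budding, stood at 247, 226 and 279 CPM in the controls and at 306, 165 and 174 CPM in the knockdown cultures. Here too RBMS1 knockdown replicate 1 was above and the other 2 were below all controls. Fitm2 had a fold change of -0.22 on the log2 scale (standard error 0.24, 95% interval -0.76 to 0.31, edgeR adjusted p = 0.759). Fitm1 (ENSMUSG00000022215, chromosome 14, 55575617 to 55576954), the form of skeletal muscle, had 0 counts in each culture, as had 4 of 8 skeletal muscle markers. Of the other 4, Acta1 was the 1 that passed the filter, at 13.4 to 17.5 CPM in the controls and 0.514 to 1.52 CPM in the knockdown (edgeR adjusted p = 0.0116).

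Bscl2 (ENSMUSG00000071657, chromosome 19, 8837467 to 8848683) encodes seipin, which sits at the neck between the endoplasmic reticulum and the forming droplet. It stood at 39.6, 31.3 and 35.1 CPM in the controls and at 57.2, 24.5 and 13.6 CPM in the knockdown cultures, so that replicate 1 lay above and the other 2 lay below every control. For Bscl2 the log2 fold change came to -0.16 (standard error 0.42, 95% interval -1.11 to 0.79, edgeR adjusted p = 0.918). Leaving out RBMS1 knockdown replicate 1 made it -0.89, leaving out replicate 2 made it 0.0068 and leaving out replicate 3 made it 0.21. The exons of Bscl2 share 239 bases with a gene model on the same strand that has no row in the table used here, so that how reads from the shared bases were assigned is not known, and 398 bases with Gng3 on the other strand, which had at most 3 counts in a culture.

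The knockdown cultures spread more widely than the controls for 5 of the 6 tested genes. On the log2 CPM scale, the SD of Cidec was 0.064 among the controls and 0.63 among the knockdown cultures, that of Bscl2 0.17 and 1.04, that of Plin2 0.19 and 0.61, that of Fitm2 0.15 and 0.49 and that of Plin3 0.052 and 0.39. Over 11251 tested genes with a count in every culture, the median SD was 0.25 among the controls and 0.26 among the knockdown cultures. Plin4 differed from the other 5, with an SD of 0.28 among the controls and 0.15 among the knockdown cultures. Ranked by SD among the knockdown cultures, Plin4 stood at percentile 23.2 of these genes, Plin3 at 70.1, Fitm2 at 79.9, Plin2 at 86.0, Cidec at 86.9 and Bscl2 at 95.9, so many other genes spread as widely. Each SD rests on 3 cultures, and their difference was not tested.

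Relative to the control mean, RBMS1 knockdown replicate 1 held 1.25 times the Cidec level, 1.14 times the Plin2, 1.22 times the Fitm2 and 1.62 times the Bscl2 level. RBMS1 knockdown replicate 2 held 0.697, 0.780, 0.659 and 0.695 times the control mean of these same 4 genes. RBMS1 knockdown replicate 3 held 0.532, 0.489, 0.695 and 0.385 times. The replicates thus parted in the same way for all 4 genes, with replicate 1 above the control mean and replicates 2 and 3 below it. The summed adipocyte markers were at 0.876, 0.479 and 0.577 times their control mean in RBMS1 knockdown replicates 1, 2 and 3, and the summed preadipocyte and fibroblast markers at 0.533, 1.17 and 1.20 times. Lpl alone held 12275 of the 23756 CPM of the adipocyte sum in scrambled control replicate 1. Col1a2 alone held 4680 of the 12614 CPM of the preadipocyte and fibroblast sum in RBMS1 knockdown replicate 2. In replicate 3 it held 5589 of the 12900 CPM, beside a control mean of 3071 CPM. Counted one by one, 5 of the 12 adipocyte markers were above their control mean in RBMS1 knockdown replicate 1 (Slc2a4, Cfd, Adipoq, Cd36 and Pparg) and 7 were below it, while 11 were below it in replicate 2 and 10 in replicate 3. Of the 13 preadipocyte and fibroblast markers, 12 were below their control mean in replicate 1. In replicate 2, 7 were above and 5 below it, and in replicate 3, 8 were above and 4 below it. Col1a2, Pdgfrb, Ly6a, Vim and Thy1 were above every control in both replicates 2 and 3, and Pdgfra and Dlk1 were below every control in all 3 knockdown cultures. The part of these markers in the spread of the droplet genes was not tested. RBMS1 knockdown replicate 1 was also the culture with the lowest Rbms1 level, 49.2 CPM.

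**Figure D3:**
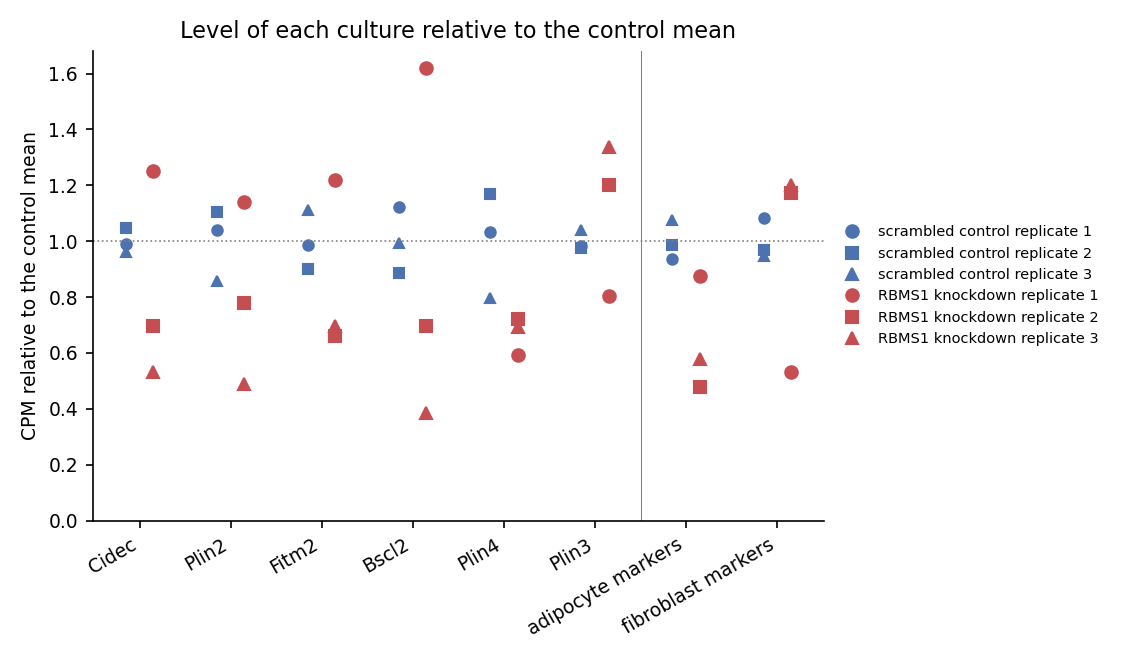
CPM of each culture divided by the mean of the 3 scrambled controls, for the 6 tested genes and for the summed adipocyte and the summed preadipocyte and fibroblast markers. RBMS1 knockdown replicate 1 is above 1 for Cidec, Plin2, Fitm2 and Bscl2 and below 1 for Plin4, Plin3 and both marker sums.

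The ratio of 2 genes within a culture does not depend on how the libraries are scaled. Plin2 and Cidec kept nearly the same ratio, with a log2 ratio of counts between -2.72 and -2.39 over the 6 cultures, a range of 1.26-fold. The ratio of Cidec to Fitm2 ranged over 1.52-fold, that of Cidec to Bscl2 over 1.79-fold and that of Fitm2 to Bscl2 over 2.40-fold. Pairs that joined one of these genes to Plin4 ranged over 2.68-fold to 4.93-fold, and pairs that joined one of them to Plin3 over 2.92-fold to 7.00-fold. Of all 15 pairs, Plin3 and Plin4 were the 1 pair whose ratio did not overlap between the groups. The log2 ratio of Plin3 to Plin4 was -4.47, -4.66 and -4.02 in the controls and -3.96, -3.66 and -3.45 in the knockdown cultures. The difference was 0.69 (exact permutation p = 0.10, two-sided, and 1.0 adjusted over the 15 pairs), and 0.10 is the smallest p that 3 cultures against 3 can give.

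Among perilipin transcripts, taken as the TPM of Plin1 to Plin4 with Plin5 at 0 counts, the share of Plin4 was 33.6% ± 2.90 (SD, n = 3) for controls and 31.1% ± 7.14 (SD, n = 3) for knockdown cultures. These are shares of RNA and not of the protein on droplets. The share of Plin2 was 25.2% ± 0.595 (SD, n = 3) and 26.6% ± 7.26 (SD, n = 3), and the share of Plin1 was 38.6% ± 3.15 (SD, n = 3) and 38.3% ± 5.09 (SD, n = 3). The share of Plin3 was 2.56% ± 0.407 (SD, n = 3) and 3.94% ± 1.45 (SD, n = 3), a difference larger than the spread of the controls and smaller than that of the knockdown cultures. The shares of the controls lay within the range of the knockdown cultures for Plin1 and Plin2. In RBMS1 knockdown replicate 1 the Plin4 share was 22.9%, the lowest of all cultures, and the Plin2 share was 33.0%, the highest.

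**Figure D4:**
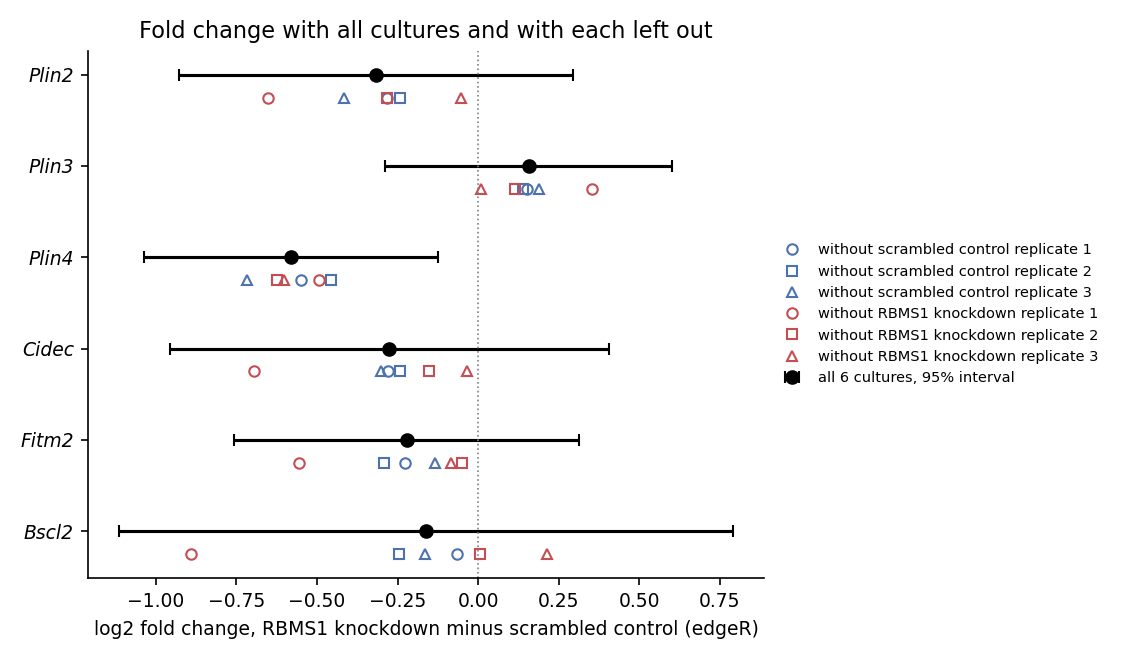
log2 fold change of the 6 tested genes, RBMS1 knockdown minus scrambled control, from edgeR. Black points and bars are the estimate and its 95% interval with all 6 cultures, and open symbols below them are the estimates with 1 culture left out. The interval lies below 0 for Plin4 alone, and the open red circle, without RBMS1 knockdown replicate 1, is the lowest estimate for Plin2, Cidec, Fitm2 and Bscl2.

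Without RBMS1 knockdown replicate 1, 2 of the 6 genes passed the test, and both were lower in the knockdown. Of all genes, 5.94% passed in either direction in that comparison and 3.63% passed as lower. The log2 fold change of Cidec was then -0.70 (standard error 0.19, edgeR adjusted p = 0.0876) and Fitm2 one of -0.55 (standard error 0.15, edgeR adjusted p = 0.0886). Plin2 had -0.65 and Bscl2 -0.89, at edgeR adjusted p = 0.133 and 0.104. Plin4, at -0.49, did not pass either (edgeR adjusted p = 0.23). With any 1 of the other 5 cultures left out, none of the 6 genes passed. Without RBMS1 knockdown replicate 3 the log2 fold change of Plin2 was -0.053, that of Cidec -0.034 and that of Fitm2 -0.084. Without replicate 2 that of Cidec was -0.15 and that of Fitm2 -0.050. Leaving out scrambled control replicate 3 gave -0.14 for Fitm2.

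The sign of 5 of the 6 log2 fold changes, all but that of Plin3, depended on the scaling. With library sizes alone, which moved the median of all genes by 0.37, the log2 fold changes of Plin2, Cidec, Fitm2 and Bscl2 were between 0.062 and 0.17. When the libraries were scaled on the adipocyte markers, which moved it by 0.62, those 4 were between 0.27 and 0.34 and that of Plin4 was 0.085. None of the 6 passed under either scaling. The adipocyte scaling called 10.6% of all genes, 0.682% as lower. Relative to the median of all genes, under library sizes alone and the adipocyte scaling, Plin4 was at -0.55 and -0.54, Cidec at -0.27 and -0.35, Plin2 at -0.31 and -0.35 and Bscl2 at -0.20 and -0.29. With TMM factors these 4 genes were at -0.59, -0.28, -0.32 and -0.17 relative to that median. Plin3 was above 0 under all 18 alternatives, but at 0.0086 without RBMS1 knockdown replicate 3 and at 0.35 without replicate 1.

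A wider list of lipid droplet genes was read in the same way. The list held 31 genes for droplet proteins and for the enzymes and trafficking factors that work on droplets, of which 29 were tested, 16 were below 0 and 13 above 0, with a median of -0.16. None passed the edgeR test, 7 of 29 had an unadjusted p under 0.05, beside 12.4% of all genes, and 8 of 29 had no overlap between the groups, beside 18.5%. DESeq2 called 1, Mettl7a1, beside 3.20% of all genes, and limma-voom 0. Scaling on the adipocyte markers called 2 others as higher, Pcyt1a and Aup1, where 10.6% of all genes were called. Mettl7a1, which encodes a droplet-bound methyltransferase-like protein, stood at 54.8, 54.1 and 61.8 CPM in the controls and at 38.5, 32.3 and 36.0 CPM in the knockdown (log2 fold change -0.68, edgeR adjusted p = 0.109). Rab8a, a small GTPase, had a log2 fold change of -0.42, Dgat1, an enzyme of the last step of triglyceride synthesis, one of -0.60, and Agpat2, an acyltransferase of an earlier step, one of -0.56. Their edgeR adjusted p lay between 0.265 and 0.27. Plin1 stood at 645, 581 and 551 CPM in the controls and at 562, 348 and 412 CPM in the knockdown, with a log2 fold change of -0.43 (edgeR adjusted p = 0.435).

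Without RBMS1 knockdown replicate 1, 8 of these 29 genes passed, all of them lower in the knockdown, beside the 3.63% of all genes that passed as lower. None of the 29 passed by edgeR with all cultures or with any other single culture left out. The culture left out here had the lowest Rbms1 level, 49.2 CPM. In the same comparison 7 of the 12 adipocyte markers passed as lower (Retn, Adig, Cebpa, Acsl1, Lpl, Cfd and Slc2a4), and their part in the drop of the droplet genes was not tested. The 8 droplet genes were Mettl7a1, Dgat1, Dgat2, Lpin1, Plin1, Lipe, Abhd5 and G0s2. Dgat2, the other enzyme of the last step of triglyceride synthesis, had the largest change of the 8, with a log2 fold change of -1.96 (edgeR adjusted p = 0.00241). It stood at 466, 483 and 603 CPM in the controls and at 555, 155 and 110 CPM in RBMS1 knockdown replicates 1, 2 and 3. Plin1 had a log2 fold change of -0.63 (edgeR adjusted p = 0.0719) in that comparison. Lipe encodes hormone-sensitive lipase, Abhd5 the activator and G0s2 the inhibitor of adipose triglyceride lipase, and their log2 fold changes were -0.72, -0.65 and -1.0 in that order.

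**Figure D5:**
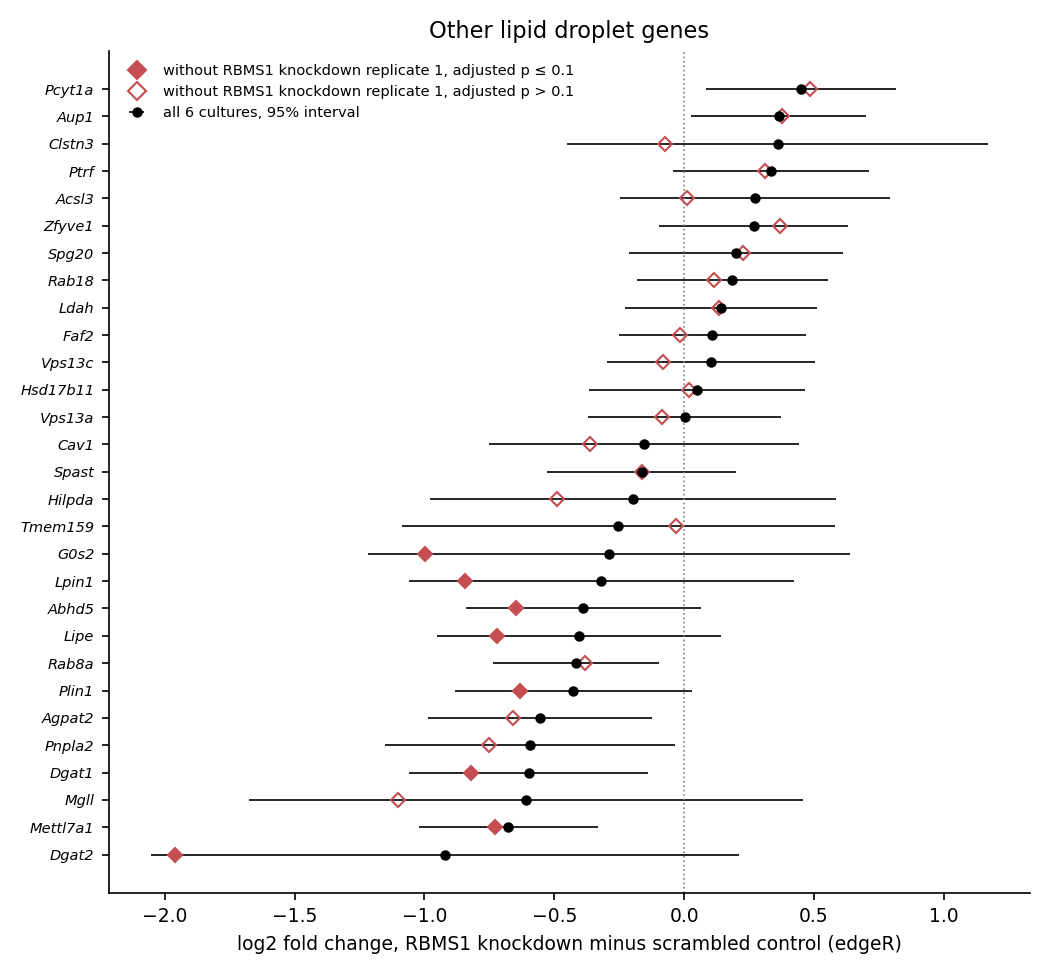
log2 fold change of the 29 tested genes of the wider lipid droplet list, ordered by size. Black points and bars are the edgeR estimate and its 95% interval with all 6 cultures, and red diamonds are the estimates without RBMS1 knockdown replicate 1, filled where the adjusted p was 0.1 or less. The 8 filled diamonds all lie below 0, the lowest being Dgat2 at -1.96. With all 6 cultures none of the 29 genes passed.

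Pparg and Cebpa, transcription factors of adipocytes, did not pass the edgeR test with all 6 cultures. Pparg was at 243, 270.5 and 269 CPM in the controls and 265, 164 and 203 CPM in the knockdown (edgeR adjusted p = 0.554), where RBMS1 knockdown replicate 1 lay within the control range. Cebpa was at 352, 263 and 308 CPM against 261, 138 and 206 CPM, with no overlap (edgeR adjusted p = 0.319). Of the 8 genes of the PPAR list, 7 were tested and 5 were below 0, with a median of -0.31. Ppargc1a, a coactivator of PPARγ, had the lowest p of that list, with a log2 fold change of -1.09 (edgeR adjusted p = 0.14), and it was the 1 gene of the list with an unadjusted p under 0.05. DESeq2 called 1 gene of that list, beside 3.20% of all genes, and limma-voom 0. The DESeq2 call was Ppargc1a, which is also 1 of the 2 DESeq2 calls among the brown and beige markers. Without RBMS1 knockdown replicate 1, where edgeR called 5.94% of all genes, Cebpa was lower at -0.83 and Ppargc1a at -1.18 on the log2 scale (edgeR adjusted p = 0.0609 and 0.0773). Pparg had a log2 fold change of -0.50 there and did not pass (edgeR adjusted p = 0.127). Of the 12 adipocyte markers, 10 were below 0 with a median of -0.42, and Retn, the adipokine resistin, was the 1 that passed (log2 fold change -1.67, edgeR adjusted p = 0.0967). The 1 call of 12 stands beside 1.22% of all genes. An unadjusted p under 0.05 was reached by 5 of the 12, beside 12.4% of all genes. DESeq2 called 4, beside 3.20% of all genes, with Retn, Acsl1 and Lpl lower and Cd36, a fatty acid transporter, higher, and limma-voom called 1. Of the 11 tested preadipocyte and fibroblast markers, 7 were below 0 with a median of -0.073, none passed by edgeR, 2 had an unadjusted p under 0.05 (12.4% of all genes did), and DESeq2 called 1 (3.20% of all genes) and limma-voom 0. The DESeq2 call was Pdgfra, a receptor of preadipocytes, at -0.86 on the log2 scale. Of the 8 macrophage markers, 3 had no count in any culture, and their summed level was 2.89 to 5.46 CPM in the controls and 4.89 to 9.69 CPM in the knockdown. The 2 that were tested passed with neither edgeR, DESeq2 nor limma-voom, and had no unadjusted p under 0.05 (0 of 2). With the adipocyte scaling, which called 10.6% of all genes, Cd14 was called as higher (1.6 on the log2 scale, edgeR adjusted p = 0.0972).

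For the 3 tested genes with the lowest p, the most alike profiles among 8095 other genes, those whose mean log2 CPM was at least that of 10 CPM, were sought by Pearson's r of log2 CPM over the 6 cultures, a description in which the cultures share their group and library. For Plin4 they were 5830417I10Rik (r = 0.990), Champ1 (r = 0.982) and Mrpl2 (r = 0.976). For Plin2 they were Aatk (r = 0.993), Gpi1 (r = 0.985) and Tiparp (r = 0.982). For Fitm2 they were Ormdl3 (r = 0.997), A130010J15Rik (r = 0.995) and Tmem135 (r = 0.994). None of these 9 genes passed the test between the groups (edgeR adjusted p between 0.231 and 0.833).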

How the data were processed

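Per the labels and the methods of the study, the authors sequenced stranded libraries depleted of ribosomal RNA. Their notes name Trim Galore 0.6.7, STAR 2.7.10a, Salmon 1.9.0 and the build GRCm38. The deposited table holds unnormalized estimated counts, 1 value per gene and sample, and the annotation release is not given in the sources used here. Here the estimated counts were rounded, and filtered with filterByExpr, and the test was that of edgeR 4.0.16 under R 4.3.3 (TMM factors, estimateDisp, glmQLFit with its current estimates, glmQLFTest) on the condition alone, over 11440 genes. Standard errors and 95% intervals were derived from the F statistic. Lengths, GC content and positions came from GENCODE release M21 on GRCm38, and promoters from RefSeq. Alternatives were DESeq2 1.42.0, limma-voom (limma 3.58.1), other scalings and filters, unrounded counts, a replicate block, removal of the trend with GC content and length, and each culture left out in turn. The earlier quasi-likelihood estimates were added after seeing the data. The genes and lists were chosen with earlier results of these data known, and so were the motifs. All 9 genes are named, with Rbms1, the called genes of each list, the 4 lowest p of the wider droplet list and the most alike profiles. Further genes of these lists (Plin1, Dgat2, Pparg, Cebpa and those called without 1 culture among them) were named after their values were seen. The tests were tried on simulated data with known changes. Replicate pairs differed by far more than counting noise.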

Additional observations from a re-analysis of the deposited data

How the results depend on the processing

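None of the 9 genes passed with edgeR under any alternative scaling or filter, and the count was 0 to 2 with each culture left out in turn and 1 by DESeq2. For the wider droplet list the count was 0 to 8 with each culture left out, 1 by DESeq2 and 2 with libraries scaled on the adipocyte markers. Over all tested genes it was 12 to 696 with each culture left out, 430 by DESeq2, 268 without a filter on low counts, 1212 with the adipocyte scaling and 39 with the replicate block. Deviations from the group means had correlations of -0.14, 0.078 and -0.028 between same-numbered cultures. Those between cultures of unlike number lay between -0.17 and 0.21. With 3 cultures per group these values cannot settle whether the numbers pair the cultures. Under the replicate block no droplet gene passed. Log2 fold changes above 0 in place of below 0 were, with library sizes alone, 0.062 for Plin2, 0.099 for Cidec, 0.13 for Fitm2 and 0.17 for Bscl2, and with the adipocyte scaling 0.27 for Plin2, 0.085 for Plin4, 0.27 for Cidec, 0.32 for Fitm2 and 0.34 for Bscl2. Leaving out each culture in turn gave Bscl2 values between -0.89 and 0.21, the lowest with RBMS1 knockdown replicate 1 removed and the highest with replicate 3 removed, and 0.0068 with replicate 2 removed. Without a change of sign, values moved by over 1.5 times with the trend with GC content and length removed (Plin2 -0.19, Cidec -0.13, Bscl2 -0.051), with the ribosomal RNA derived genes left out and library sizes alone (Plin2 -0.18, Plin3 0.31, Cidec -0.14, Fitm2 -0.088, Bscl2 -0.056), with library sizes alone (Plin3 0.54, Plin4 -0.17) and the adipocyte scaling (Plin3 0.83), and for Bscl2 by limma-voom (-0.51) and with the replicate block (-0.39). The scalings move all genes by construction, and the cause of the other moves was not tested. The share of lower genes among those called was 74.3%, and 33.3% with library sizes alone, 46.6% with these and the ribosomal RNA derived genes left out, 63.3% with the trend with GC content and length removed and 6.44% with the adipocyte scaling. Depth leaves levels of Plin5 and Fitm1 under 0.0694 CPM over all 6 libraries undetectable, and the 7 counts of Cidea too few to compare.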
